A study of Mus musculus with 8 samples.

Results

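DNA replication and S-phase genes are the genes whose products open replication origins, unwind and copy DNA, supply its building blocks and repackage it in chromatin. A list of 33 such genes was followed in the left ventricle of the mouse heart, and members were found as probe sets annotated with 1 gene symbol. Of these, 31 were measured, among 22180 genes in all. Ccne2, a cyclin E, and Rfc4, a clamp loader subunit, stand on probe sets that carry a second gene symbol, and neither was used. For the 3 members with more than 1 probe set (Fen1, Pole and Rrm2), the one with the highest mean was taken.

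The tissue came from C57BL/6 females of 3 to 4 months, and each state was represented by 2 arrays with no other treatment or genetic change. The reference state was diestrus, a resting phase of the estrous cycle, in animals that were not pregnant (replicates 2 and 3). The other states were day 12 of pregnancy (replicates 2 and 3), day 19 of pregnancy, which the protocol gives as 18 or 19 days (replicates 1 and 2), and 1.5 days after birth (replicates 2 and 4). RNA was taken from 1 of 3 pieces of the dissected ventricle, so each value averages muscle cells with vessel, connective tissue and blood cells. In such bulk tissue fewer cells of a type and less RNA per cell cannot be told apart. The numbered samples are separate in the labels, but no label ties them to single animals, so p-values measure only the spread between these samples.

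Before a cell divides, the loaders Cdc6 and Cdt1 place rings of the Mcm2 to Mcm7 proteins on DNA, which marks origins for use. In S phase Cdc45 and the GINS proteins turn these rings into active helicases, and the polymerases follow with the sliding clamp Pcna. Transcription of many of these genes is driven by E2F factors once cyclin-dependent kinases inactivate Rb proteins. Adult heart muscle cells rarely enter the cycle, and most dividing cells of the adult heart belong to the vessel wall, connective tissue and immune lineages.

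E2F recognition words were searched in RefSeq promoters of build GRCm38.p6, each running from 250 bases before to 50 bases after a gene's start. The words were TTTGGCGC, TTTCGCGC, TTTGCCGC and TTTCCCGC, on both strands, and overlapping matches were counted separately. Of the 28 members in that promoter table, 12 held at least 1 match (42.9%), against 2.26% of 32851 promoters of all genes and 3.25% of measured genes in the table. The stretches below are shown because they carry the matches of the 5 matching members with the smallest moderated F p over the states. They are written 5′ to 3′ on the gene's strand, with each match in capitals.
Dtl: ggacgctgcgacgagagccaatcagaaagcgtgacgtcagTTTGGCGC
Mcm5: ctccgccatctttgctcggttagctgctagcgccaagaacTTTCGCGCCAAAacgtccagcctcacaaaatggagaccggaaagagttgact
Mcm3: GCGGGAAAacttgggaagtTTTGGCGC
Cdc6: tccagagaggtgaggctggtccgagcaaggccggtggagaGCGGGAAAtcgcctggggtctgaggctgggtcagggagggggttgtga
Uhrf1: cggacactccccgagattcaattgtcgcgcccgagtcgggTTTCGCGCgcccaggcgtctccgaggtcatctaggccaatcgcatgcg

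The Dtl stretch lies at chr1:191575545-191575592 on the minus strand and ends at the gene's start, so its match begins 8 bases before that start. The Mcm5 stretch is chr8:75109316-75109407 on the plus strand and holds overlapping matches on both strands, 153 and 149 bases before the start. Both matches of Mcm3 (chr1:20820267-20820293, minus strand) fall after the start, at bases 20 and 39 of the transcribed part. Cdc6 (chr11:98907973-98908060, plus strand) has its match 138 bases before the start and Uhrf1 (chr17:56304088-56304175, plus strand) 185 bases before it, at 1 of 2 starts in the table. Mcm6, whose promoter is not shown, held 3 matches, 110, 106 and 47 bases before its start. A match is a description of these letters and not a measured binding site.

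Other promoter words were counted for comparison. The CHR word, searched as TTTGAA or TTCGAA, stood in 5 of the 28 member promoters (17.9%), against 19.2% of all promoters and 19.4% of measured genes. It stood in 15 of 19 promoters of a list of mitosis genes. Only 1 of those 19 held an E2F word, against 18 of 51 promoters of other replication genes. The CCAAT box, searched as CCAAT on both strands, stood in 17 of the 28 member promoters (60.7%). The share was 37.4% of all promoters and, counted by gene as for the members, 41.6% of measured genes. It also stood in 16 of 19 mitosis and 28 of 51 other replication promoters. No test was made of these shares, and many of the members are long-known targets of E2F factors.

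The values are log2 RMA intensities, and a difference of 1 means a doubling. RMA equalised the arrays. Levels are compared between states for 1 gene at a time and never between genes. Correlations between arrays over all probe sets were 0.98 to 0.992 for 7 of the arrays and 0.969 to 0.977 for day 19 replicate 2 against the rest. Defining heart muscle genes (Myh6, Tnnt2, Actc1, Myl2 and 6 more) averaged 11.99 to 12.20 on every array. Day 19 replicate 2 carried high immune genes: macrophage markers averaged 1.25 above the diestrus mean and interferon-response genes 2.10, against 0.10 and 0.20 on replicate 1. Atrial markers were uneven within states: they lay 2.78 above the diestrus mean on day 19 replicate 1, 1.06 on day 12 replicate 3 and 0.55 on diestrus replicate 3, and at -0.55 on diestrus replicate 2 and -0.72 and -0.59 post-partum.

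The main pattern was a higher level of the replication genes 1.5 days after birth. As a difference from the diestrus mean, the mean of the 31 measured members was -0.063 and 0.063 on the diestrus arrays, 0.069 and -0.016 at day 12, 0.063 and 0.16 at day 19, and 0.35 and 0.49 post-partum. Both post-partum arrays thus lay above the other 6, and the remaining states overlapped. Post-partum minus diestrus was 0.42 for this mean, or 1.34-fold, against 0.027 at day 12 and 0.11 at day 19, which was 0.044 with arrays centred on their medians. Post-partum also exceeded day 19 by 0.31 and day 12 by 0.39. Leaving out each array in turn gave 0.35 to 0.49 for post-partum minus diestrus and 0.23 to 0.38 for post-partum minus day 19. Without day 19 replicate 2 the latter was 0.36.

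**Figure D1:**
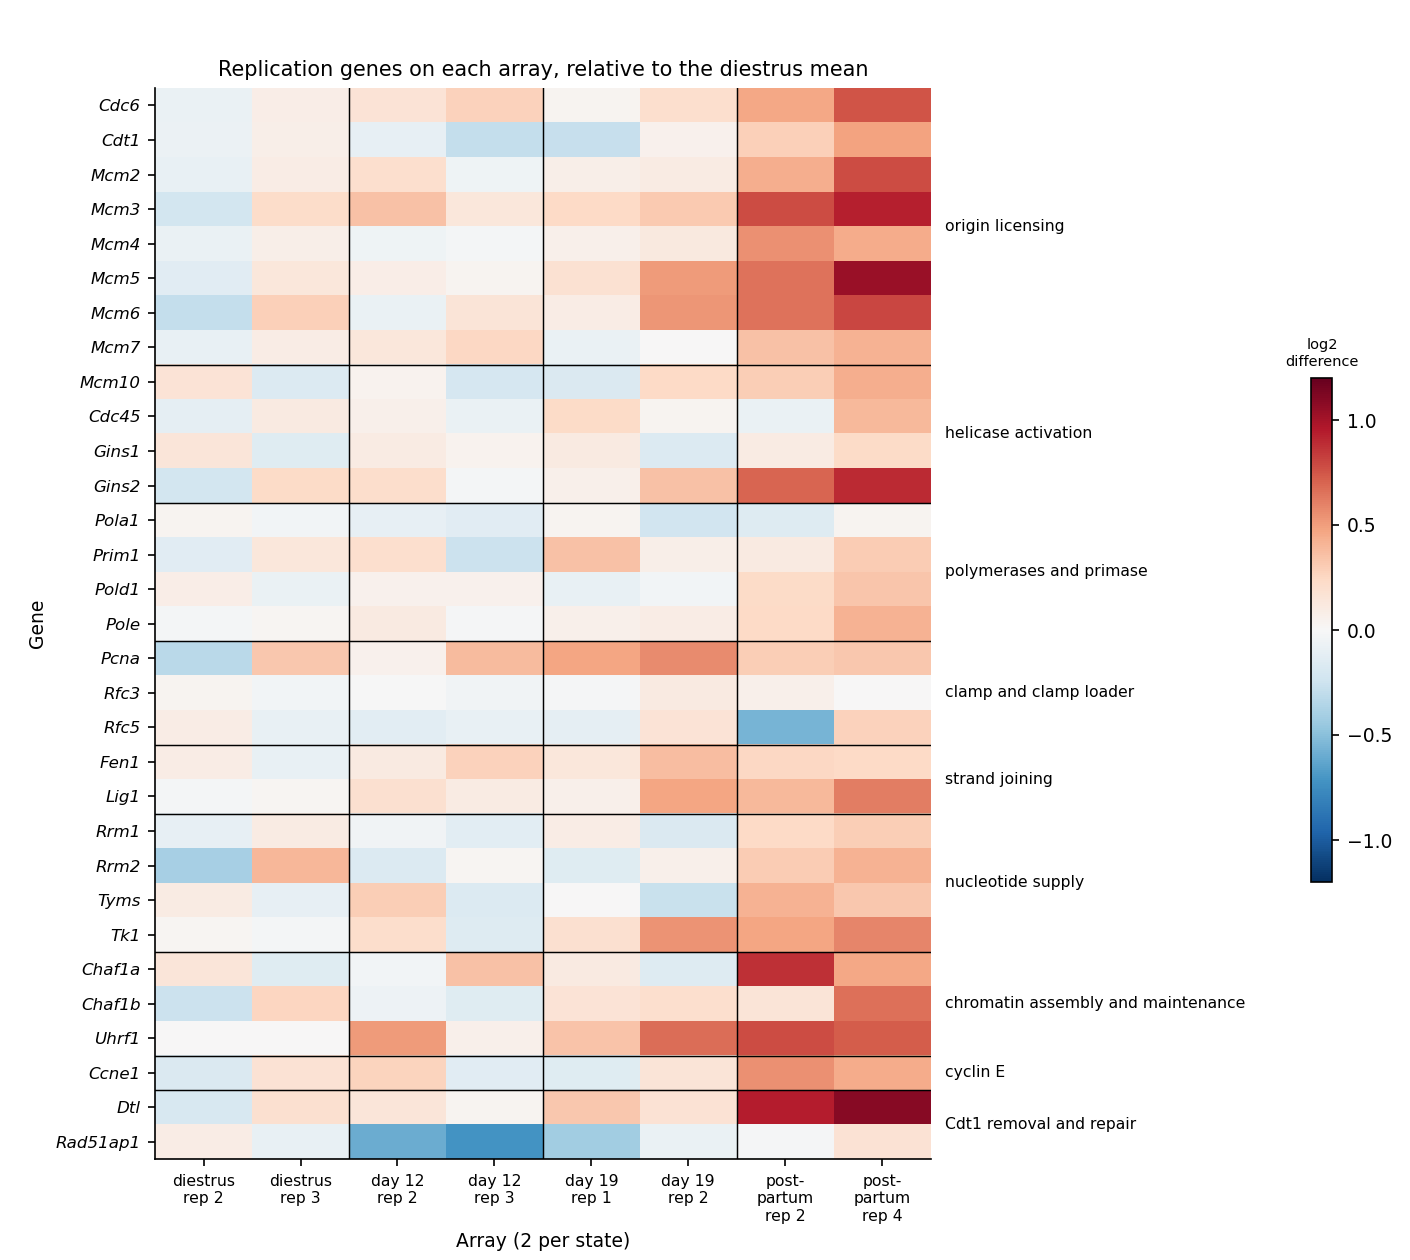
Heat map of the 31 measured replication genes (rows, grouped by role) on the 8 arrays (columns), coloured by the log2 difference from the mean of the 2 diestrus arrays. The post-partum columns are red for most genes, Pola1 and Rfc3 stay near 0, Rfc5 is blue on post-partum replicate 2, and Rad51ap1 is blue on both day 12 arrays.

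Single genes did not pass the test across the whole array. In limma, 0 of the 13872 genes tested (0%) reached an adjusted p under 0.05 in any of the 6 comparisons made, and so 0 of the 29 members tested did. Post-partum against diestrus the members' adjusted p ran from 0.652 to 0.956. Gins1 and Fen1 lay below the level needed for testing. Cdc6, Dtl and Chaf1a reached that level through the post-partum mean alone, so they could only differ upwards there.

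An unadjusted p under 0.05 with a higher post-partum value was found for 16 of the 29 tested members, where 3.38% of all tested genes had one. With genes kept by their mean over all 8 arrays, which does not favour a state, it was 14 of 26 members against 3.29% of genes. Without diestrus replicate 2 the count was 8 of 29, against 1.51% of genes in that setting, and without post-partum replicate 4 it was 8 of 28, against 5.68%. No member was lower at that level in the main comparison.

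Counts that use no filter cover the 31 measured members. Of these, 29 were higher post-partum than in diestrus, with a median log2 difference of 0.38, against 51% of all 22180 genes and a median of 0.0053. For 21 members both post-partum arrays lay above both diestrus arrays, against 20.3% of all genes. Both post-partum arrays lay above all 6 others for 18 members, against 5.52% of genes; this last count was chosen after the values were seen. The 18 were Mcm2 to Mcm7, Mcm10, Gins2, Pole, Pold1, Rrm1, Tyms, Cdc6, Cdt1, Dtl, Uhrf1, Chaf1a and Ccne1. No member had both post-partum arrays below the rest.

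Origin licensing and chromatin assembly had the largest post-partum differences among the 9 roles, each with a mean of 0.61. All 8 licensing members (Cdc6, Cdt1 and Mcm2 to Mcm7) were higher post-partum than in diestrus without overlap, by 0.38 to 0.86, and their mean was 0.52 and 0.71 above the diestrus mean on the post-partum arrays. At day 12 the same mean was 0.087 and 0.058, and at day 19 it was 0.040 and 0.23. All 8 also lay above all 6 other arrays on both post-partum arrays.

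Cdc6, the loader that brings the rings to origins, measured 4.89 and 5.04 in diestrus, 5.13 and 5.24 at day 12, 5.0 and 5.17 at day 19, and 5.43 and 5.72 post-partum. The difference from diestrus was 0.61 ± 0.15 (SE, n = 2 per group; 1.53-fold, adjusted p = 0.722). Both post-partum arrays exceeded every other array, and day 12 and day 19 overlapped. Cdt1, its partner, measured 5.89 and 6.03 in diestrus, 5.86 and 5.67 at day 12, 5.68 and 6.01 at day 19, and 6.25 and 6.44 post-partum. Day 12 lay below diestrus on both arrays while post-partum lay above it, and the post-partum difference was 0.38 ± 0.16.

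Mcm2 to Mcm7 encode the 6 subunits of the ring. Mcm3 measured 5.11 and 5.56 in diestrus, 5.69 and 5.47 at day 12, 5.57 and 5.65 at day 19, and 6.12 and 6.27 post-partum. Mcm5 measured 6.18 and 6.45, then 6.39 and 6.35, then 6.50 and 6.83, and 6.97 and 7.35 post-partum. Day 19 of Mcm3 lay just above diestrus and overlapped day 12, and day 19 of Mcm5 lay above both earlier states. These 2 subunits had the largest post-partum differences of the ring, 0.86 ± 0.18 (1.81-fold) and 0.84 ± 0.19 (1.79-fold).

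Mcm2 gave 6.23 and 6.40 in diestrus, 6.52 and 6.26 at day 12, 6.39 and 6.41 at day 19, and 6.75 and 7.10 post-partum, a difference of 0.61 ± 0.17. Mcm4 gave 6.61 and 6.76, then 6.63 and 6.66, then 6.75 and 6.80, and 7.23 and 7.13 post-partum, a difference of 0.49 ± 0.13. Both post-partum arrays lay above every other array in each gene, and the earlier states of each overlapped diestrus.

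Mcm6 gave 6.22 and 6.80 in diestrus, 6.43 and 6.66 at day 12, 6.60 and 7.04 at day 19, and 7.16 and 7.31 post-partum. Its diestrus arrays lay far apart, so the difference of 0.73 ± 0.23 became 0.44 without diestrus replicate 2. Mcm7 gave 6.34 and 6.51, then 6.56 and 6.67, then 6.35 and 6.43, and 6.78 and 6.84 post-partum, a difference of 0.38 ± 0.13. For Mcm7 day 12 lay above diestrus without overlap, and day 19 lay below day 12 and overlapped diestrus. The adjusted p of all 6 ring genes was 0.722.

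**Figure D2:**
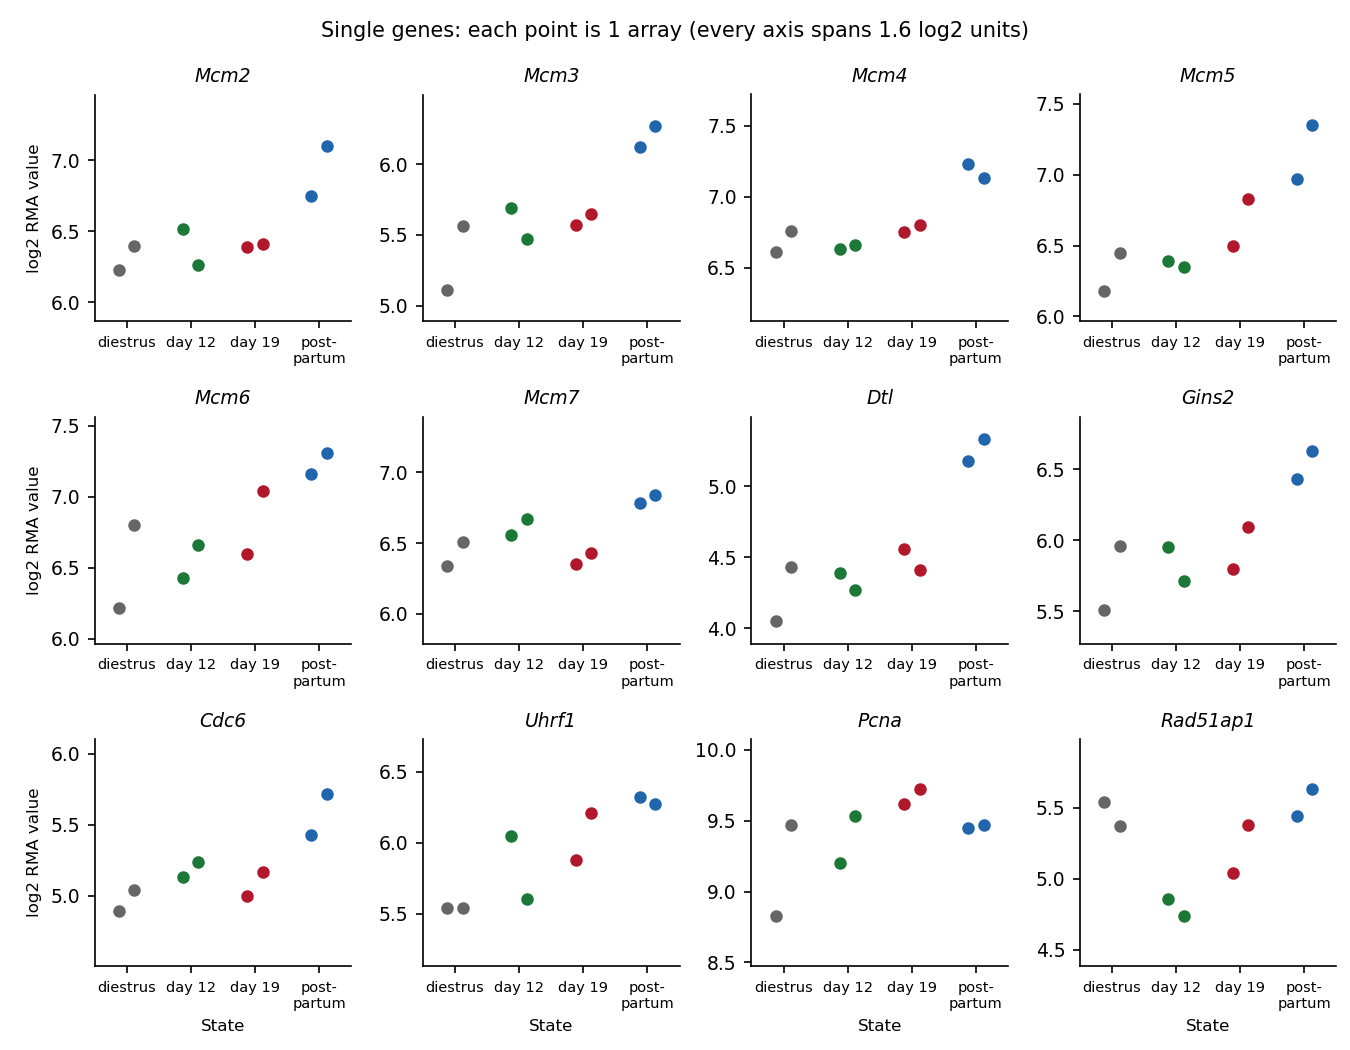
Log2 RMA value (vertical axis) of 12 replication genes on each of the 8 arrays, grouped by state, with 1 point per array and axes of equal span. Dtl, Mcm2 to Mcm7, Gins2, Cdc6 and Uhrf1 have both post-partum points on top, Pcna has its highest points at day 19, and Rad51ap1 has its lowest points at day 12.

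Helicase activation was uneven. Gins2, a subunit of the GINS complex, measured 5.51 and 5.96 in diestrus, 5.95 and 5.71 at day 12, 5.80 and 6.09 at day 19, and 6.43 and 6.63 post-partum. It was higher post-partum by 0.80 ± 0.20 (1.74-fold, adjusted p = 0.722), and both arrays exceeded all others. Gins1, another subunit of that complex, was untested and overlapped diestrus, with a difference of 0.16.

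Cdc45, the third component of the active helicase, measured 5.44 and 5.66 in diestrus, 5.61 and 5.47 at day 12, 5.78 and 5.58 at day 19, and 5.47 and 5.94 post-partum. Its states overlapped throughout, and the post-partum difference of 0.15 became -0.083 without post-partum replicate 4. Mcm10, which helps to start the helicase, was 0.37 ± 0.19 higher post-partum, with 5.47 and 5.61 against 5.34 and 5.01, and 0.20 without diestrus replicate 3.

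The polymerase genes differed less. Pole and Pold1, the catalytic subunits of the leading-strand and lagging-strand polymerases, were higher post-partum by 0.33 ± 0.13 and 0.28 ± 0.13 without overlap. The other probe set of Pole, with a lower mean and not used, overlapped: 4.85 and 5.0 in diestrus and 5.26 and 4.94 post-partum. Pola1, the catalytic subunit of the polymerase that lays down primers with primase, gave -0.061 ± 0.14, and the primase gene Prim1 gave 0.20 ± 0.20, both with overlapping arrays. The mean of these 4 genes was 0.10 and 0.27 above diestrus on the post-partum arrays.

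The clamp and its loader did not follow the licensing genes. Pcna measured 8.83 and 9.47 in diestrus, 9.20 and 9.53 at day 12, 9.62 and 9.72 at day 19, and 9.45 and 9.47 post-partum. Its highest pair was at day 19, 0.52 ± 0.22 above diestrus (1.44-fold, adjusted p = 0.657), and post-partum lay below day 19 on both arrays. Post-partum minus diestrus was 0.31 ± 0.22 and became -0.0055 without diestrus replicate 2. That array was the lowest of the 8, so the day 19 difference rests partly on it too. Diestrus replicate 3, at 9.47, lay closer to the day 19 values of 9.62 and 9.72. Rfc3 and Rfc5, subunits of the clamp loader, gave 0.038 ± 0.12 and -0.14 ± 0.26, and Rfc5 was 5.47 on one post-partum array and 6.31 on the other.

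Strand joining is the step in which the flap nuclease Fen1 and the ligase Lig1 finish the lagging strand. Lig1 was higher post-partum by 0.50 ± 0.17, with 6.38 and 6.60 against 5.97 and 6.01, and day 19 replicate 2 reached 6.46. Fen1 was not tested, and its difference was 0.25 with 5.05 and 5.04 against 4.89 and 4.71. The 2 genes were higher than diestrus without overlap in all 3 later states.

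Nucleotide supply was higher post-partum for all 4 members, by 0.26 to 0.53. Tk1, the thymidine salvage kinase, measured 5.73 and 5.69 in diestrus, 5.92 and 5.56 at day 12, 5.90 and 6.25 at day 19, and 6.18 and 6.30 post-partum. Day 19 replicate 2 lay between the post-partum arrays, and the post-partum difference was 0.53 ± 0.18. Tyms, which makes thymidylate, measured 6.78 and 6.59, then 6.98 and 6.52, then 6.69 and 6.42, and 7.10 and 7.01 post-partum, a difference of 0.37 ± 0.19. Its post-partum pair was above every other array, but day 12 replicate 2 came close to it.

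Ribonucleotide reductase makes deoxynucleotides and has a large subunit, Rrm1, and an S-phase small subunit, Rrm2. Rrm1 measured 7.51 and 7.70 in diestrus, 7.56 and 7.48 at day 12, 7.69 and 7.43 at day 19, and 7.84 and 7.90 post-partum. Its difference of 0.26 ± 0.15 became 0.17 without diestrus replicate 2. Rrm2 measured 5.0 and 5.79, then 5.23 and 5.42, then 5.25 and 5.46, and 5.70 and 5.81 post-partum. The diestrus pair of Rrm2 spanned nearly the whole range, and the difference of 0.36 ± 0.25 became -0.035 without diestrus replicate 2.

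Genes that rebuild chromatin behind the fork were higher post-partum. Uhrf1, which carries DNA methylation onto the new strand, measured 5.54 and 5.54 in diestrus, 6.05 and 5.60 at day 12, 5.88 and 6.21 at day 19, and 6.32 and 6.27 post-partum. It was above diestrus in every later array, by 0.50 ± 0.19 at day 19 and 0.75 ± 0.19 post-partum (1.68-fold, adjusted p = 0.722). Day 19 and post-partum differed by less than the former's array spread. Chaf1a and Chaf1b, subunits of the histone chaperone of new DNA, were 0.67 ± 0.21 and 0.41 ± 0.22 higher post-partum, the latter with overlapping arrays. For Chaf1b the difference was 0.16 without diestrus replicate 2 and 0.15 without post-partum replicate 4.

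Ccne1, a cyclin E that drives entry into S phase, measured 5.50 and 5.85 in diestrus, 5.94 and 5.54 at day 12, 5.53 and 5.83 at day 19, and 6.22 and 6.12 post-partum. The first 3 states overlapped, and the post-partum difference was 0.49 ± 0.20, or 0.32 without diestrus replicate 2.

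Dtl showed the largest post-partum difference of all members. Its product directs the removal of Cdt1 during S phase, which prevents a second round of licensing. It measured 4.05 and 4.43 in diestrus, 4.39 and 4.27 at day 12, 4.56 and 4.41 at day 19, and 5.18 and 5.33 post-partum. Day 12 and day 19 each overlapped diestrus, and post-partum exceeded diestrus by 1.02 ± 0.16 (2.03-fold, adjusted p = 0.652) and day 19 by 0.77 ± 0.16 (adjusted p = 0.589). Without day 19 replicate 1 the second difference was 0.85 with an adjusted p of 0.0449 in limma. That setting sets post-partum against 1 array, day 19 replicate 2, which stands apart from the rest and is assumed to vary like the other groups, and Dtl entered the test only through its post-partum mean. Over the settings tried, the smallest adjusted p of any member in that comparison ran from 0.0449 to 0.965. Over the arrays left out, the difference from diestrus lay between 0.83 and 1.21.

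Rad51ap1, a DNA repair gene, had a different course. It measured 5.54 and 5.37 in diestrus, 4.86 and 4.74 at day 12, 5.04 and 5.38 at day 19, and 5.44 and 5.63 post-partum. The day 12 pair was the lowest of all 8 arrays, with a difference from diestrus of -0.65 (1.57-fold lower, SE 0.16, adjusted p = 1). It was the only one of 29 tested members with an unadjusted p under 0.05 and a lower value at day 12, where 1.10% of all tested genes had one. Post-partum overlapped diestrus, with a difference of 0.081 ± 0.16.

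**Figure D3:**
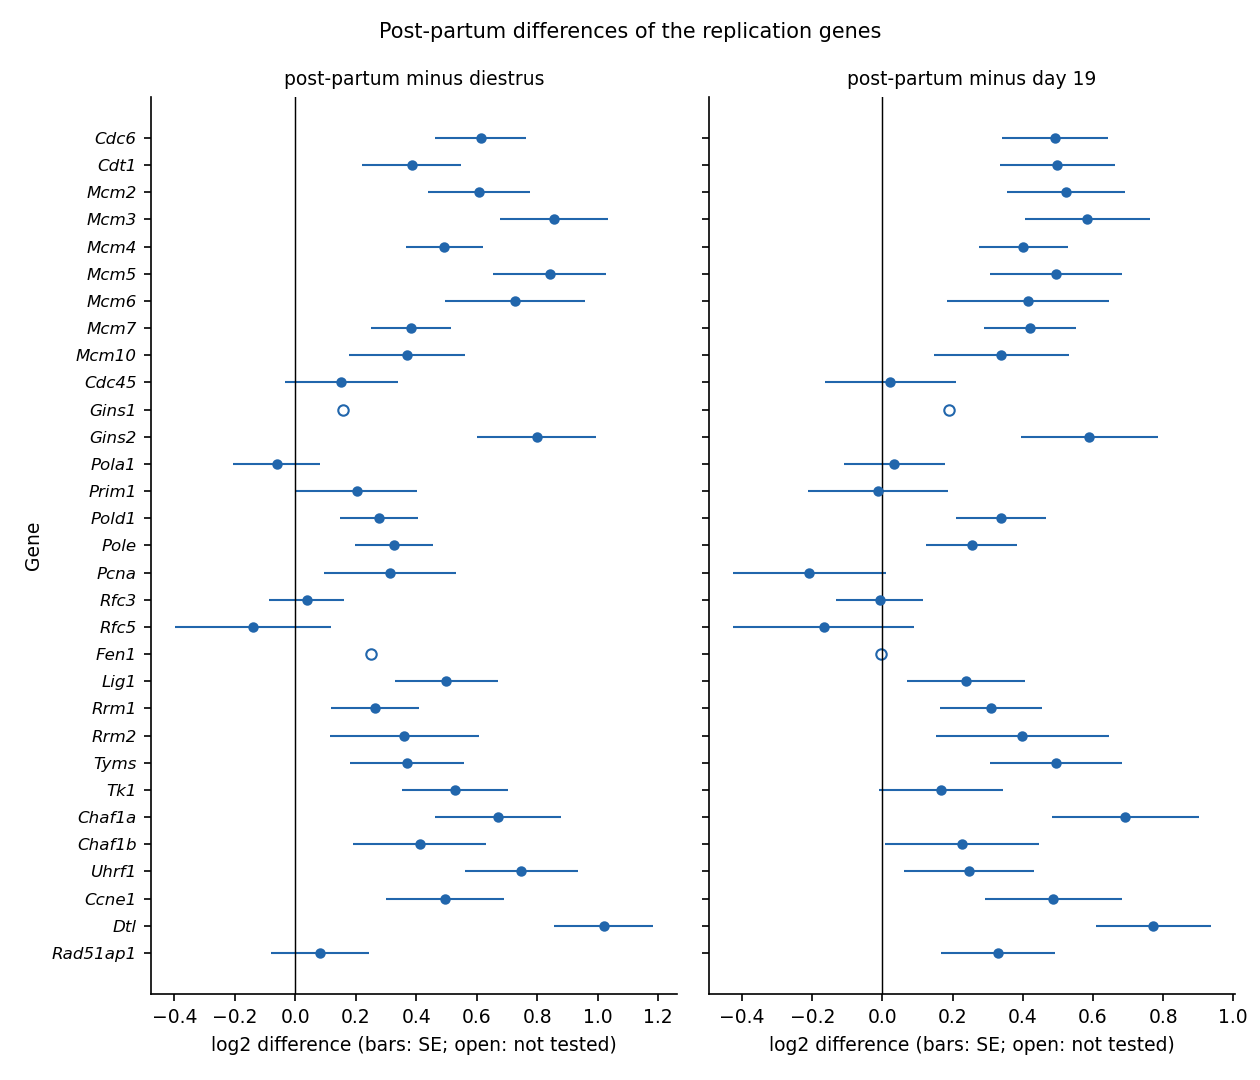
Log2 difference of each measured replication gene between post-partum and diestrus (left) and between post-partum and day 19 (right), with bars for the moderated standard error and open circles for the 2 genes not tested. The licensing genes Cdc6, Cdt1 and Mcm2 to Mcm7 lie right of 0 in both panels, whereas Pcna, Rfc3 and Rfc5 lie at or left of 0 against day 19.

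During pregnancy the differences from diestrus were smaller. At day 12, 19 of 31 were higher and 12 lower than in diestrus, with a median of 0.051, against 0.0084 over all genes. The arrays were apart and higher for 5 members, against 19.5% of all genes, and 0 tested members had an unadjusted p under 0.05 and a higher value, where 1.22% of genes had one. At day 19, 21 of 31 were higher with a median of 0.084. The arrays were apart and higher for 8 members, against 17.8% of genes, and 17 members lay above the diestrus mean on both arrays (54.8%) and 2 below it, against 30.4% and 30.4% of genes. Of the tested members 2, Pcna and Uhrf1, had an unadjusted p under 0.05 and a higher value, against 3.70% of genes. With array weights 0 members had one, against 3.5% of genes. With arrays centred on their medians 1 member had one, against 2.44%. From day 12 to day 19, 1 tested member, Rad51ap1, was higher at that level, against 2.93%.

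The passage through birth was seen in the direct comparison of post-partum with day 19. Of the 31 members, 26 were higher post-partum, with a median of 0.34, and for 20 the arrays did not overlap, against 17.1% of all genes. An unadjusted p under 0.05 with a higher value was found for 13 of 29 tested members, against 4.69% of genes. With genes kept by their mean over all 8 arrays it was 11 of 26 members, against 4.89% of genes. These comparisons share arrays with those against diestrus and do not count as separate evidence. Leaving out post-partum replicate 4 took the count to 3 of 28, against 6.45% of genes in that setting, and array weights took it to 6 of 29, against 1.93%. Against day 12 the count was 16 of 29, where 3.94% of genes had one. It was 14 of 26 with genes kept by their mean over all 8 arrays (3.88% of genes). It was 6 of 29 without day 12 replicate 3 (1.55% of genes), and 6 of 28 without post-partum replicate 4 (5.75% of genes).

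The 2 post-partum arrays were not equal. Of the 31 members, 24 were higher on replicate 4 than on replicate 2, and 22 had their highest value of all 8 arrays there, against 9.41% of all genes. Another 5 were highest on replicate 2, 3 on day 19 replicate 2 and 1 on day 19 replicate 1. Compared with the diestrus mean, 27 members were higher on both post-partum arrays, against 33.6% of genes.

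Genes of other cell types were read on the same arrays, beside these differences. On post-partum replicates 2 and 4, macrophage markers averaged -0.019 and 0.38 from the diestrus mean, T and B lymphocyte markers -0.17 and 0.034, and neutrophil markers 0.10 and -0.025. On both post-partum arrays 4 of 10 macrophage, 3 of 9 lymphocyte and 3 of 8 neutrophil markers were above the diestrus mean. Over all genes the share was 33.6%. Of the macrophage markers, Cd68, a lysosome gene, measured 8.22 and 8.41 in diestrus and 9.37 and 9.22 post-partum. Its difference was the largest of the 10, whose median was 0.087, and 3 of the 10 were lower post-partum. Cd163, for example, measured 6.96 and 6.73 in diestrus and 6.35 and 6.67 post-partum. Macrophage levels in log2 averaged 8.21 to 8.24 in diestrus and 8.21 to 8.60 post-partum.

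Endothelial markers averaged -0.13 and -0.048 from diestrus on the post-partum arrays, mural cell markers -0.053 and 0.048, and heart muscle genes 0.036 and 0.016. Fibroblast markers averaged 0.15 and 0.26, and 4 of 8 were higher than the diestrus mean on both arrays, against 33.6% of all genes. For 3 of the 8 (Col1a1, Col3a1 and Postn) both post-partum arrays lay above both diestrus arrays, against 20.3% of genes. For 3 others (Pdgfra, Dcn and Tcf21) both lay below, against 19.1%. Of the erythroid markers 4 of 9 were measured, without the globins, and they averaged 0.51 and 0.32 post-partum, with 0.38 to 0.48 on the pregnancy arrays. The part of immune cells, fibroblasts and red cell precursors in the replication pattern was not tested.

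**Figure D4:**
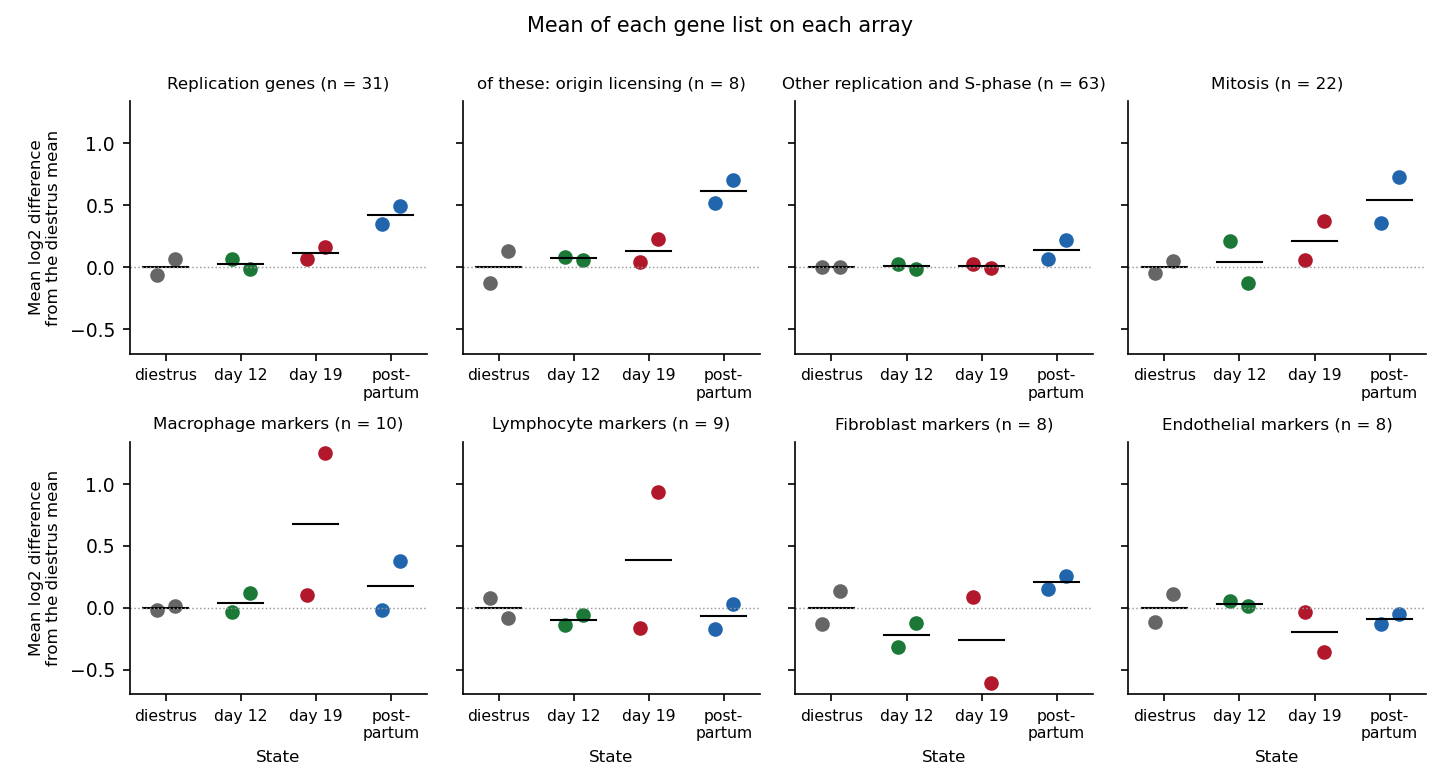
Mean log2 difference from the diestrus mean (vertical axis) of 8 gene lists on each array, with 1 point per array, grouped by state, and a bar at the mean of each pair. Replication and licensing genes are highest on both post-partum arrays, and the pair mean of the mitosis genes is highest there. On day 19 replicate 2 the mitosis genes (0.37) reach the level of post-partum replicate 2 (0.36). Macrophage and lymphocyte markers are highest on day 19 replicate 2, and macrophage markers are also at 0.38 on post-partum replicate 4.

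Other genes of DNA replication and S phase, from a list of 68 that leaves out the members, differed less. Of the 63 measured, 42 were higher post-partum than in diestrus (66.7%) with a median of 0.11, against 51% of all genes and a median of 0.0053. For 31 the arrays were apart and higher (49.2%), against 20.3% of all genes. Of the 52 tested, 0 passed the adjusted threshold in limma, and 7 were higher and 1 lower at an unadjusted p under 0.05. Among all 13872 tested genes 469 were higher (3.38%) and 449 lower at that level. The list averaged 0.063 and 0.22 on the post-partum arrays, so replicate 4 carried most of it.

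Cyclin A2, which acts with Cdk2 in S phase, stood at the top of that list. Ccna2 measured 5.88 and 6.15 in diestrus, 6.27 and 5.83 at day 12, 6.42 and 6.69 at day 19, and 7.23 and 7.23 post-partum, a difference of 1.21 ± 0.19 (2.32-fold, adjusted p = 0.652). It is named after its values were seen. Hells, a chromatin remodeller, was untested and measured 3.98 and 4.50 in diestrus and 5.14 and 5.21 post-partum, a difference of 0.93. Pole2, the second subunit of the leading-strand polymerase, gave 0.52 ± 0.18, with 5.83 and 6.36 post-partum against 5.54 and 5.61, and 0.26 without post-partum replicate 4.

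The 6 genes of the origin recognition complex did not go one way: Orc1 gave 0.38 and Orc6 0.11, whereas Orc2 gave -0.042, Orc3 -0.13, Orc4 -0.023 and Orc5 -0.26, the last 4 named after their values were seen. Among the kinase genes of that list Cdc7 gave 0.22 and Dbf4, its activator, 0.25, with Dbf4 overlapping diestrus. Clspn, a checkpoint adaptor, gave 0.44, Pola2 0.27, Rpa2, a single-strand binding subunit, 0.19 and Gmnn, the inhibitor of Cdt1, 0.072. Gins4, a further GINS subunit, went the other way, at -0.17, with 7.98 and 8.26 post-partum against 8.27 and 8.31 in diestrus. Its difference was -0.03 without post-partum replicate 2.

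Regulators of S-phase entry were read from a list of 35, all tested. In limma the adjusted threshold was passed by 0. At an unadjusted p under 0.05, 6 were higher post-partum against diestrus, where 3.38% of all tested genes were. E2f1, an activating E2F factor, measured 5.68 and 5.91 in diestrus, 5.66 and 5.71 at day 12, 5.88 and 6.34 at day 19, and 6.46 and 6.57 post-partum, a difference of 0.72 ± 0.18 (1.65-fold). E2f2 gave 0.46 ± 0.19, or 0.28 without diestrus replicate 2, and E2f7, a repressing member of the family, 0.41 ± 0.12, whereas E2f8 gave 0.20 ± 0.23 with overlap. Ccnd1, the cyclin D that starts the inactivation of Rb, measured 8.98 and 9.21 in diestrus and 9.62 and 9.71 post-partum, a difference of 0.57 ± 0.17, while Ccnd2 gave -0.080 ± 0.15. Rb1 gave -0.0089 and its relative Rbl1 0.28.

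The cell cycle inhibitors took other courses. Cdkn1a, which encodes p21, measured 8.80 and 8.01 in diestrus, 9.17 and 9.01 at day 12, 9.46 and 10.38 at day 19, and 8.37 and 9.03 post-partum. It was highest at day 19, 1.51 ± 0.37 above diestrus, and overlapped diestrus post-partum. Cdkn1b, which encodes p27, measured 8.08 and 7.69 in diestrus and 6.43 and 7.63 post-partum, and its difference of -0.86 ± 0.38 came mostly from replicate 2. Myc was 0.60 ± 0.16 above diestrus at day 19 and 0.057 ± 0.16 post-partum.

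Mitosis genes, which act after replication, were also higher post-partum, with a wider spread. Of the 22 measured, 20 were higher than in diestrus with a median of 0.51, against 51% of all genes and a median of 0.0053. Of the 20 tested, 0 passed in limma after adjustment, and 8 were higher and 1 lower at an unadjusted p under 0.05. Among all 13872 tested genes 469 were higher (3.38%) and 449 lower at that level. The mitosis genes averaged -0.048 and 0.048 in diestrus, 0.21 and -0.13 at day 12, 0.057 and 0.37 at day 19, and 0.36 and 0.73 post-partum. Mki67, the proliferation marker, measured 6.51 and 6.61 in diestrus and 7.38 and 7.84 post-partum, and day 19 replicate 2 reached 7.49. Cdk1, the kinase of mitotic entry, gave 1.14 ± 0.22 post-partum and Top2a, which untangles chromosomes, 1.17 ± 0.31, with adjusted p = 0.722 for both. At day 19 Top2a was 0.91 ± 0.31 above diestrus.

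The E2F words in the promoters were also set beside these differences. The 12 measured members with a match had a median post-partum difference of 0.56 (-0.061 to 1.02), and 10 of them had both post-partum arrays above diestrus. The 15 measured members in the promoter table without one had a median of 0.36 (-0.14 to 0.67), and 8 had arrays apart. Over all genes 20.3% had both post-partum arrays above both diestrus arrays. Pola1 and Rfc3 held matches and were near 0, and Chaf1a, at 0.67, held none. Mcm4, Gins2, Gins1, Pole and Ccne2 were not in the table. The difference between the groups was not tested.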

How the data were processed

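Each deposited value is a log2 intensity for 1 probe set. The authors used RMA, run in Expression Console from Affymetrix according to the submitters' processing notes. Software versions, settings and the genome build were not given in the sources used here. RMA corrects background and equalises the arrays, which removes shifts shared by most genes. Per the labels' protocols, 100 ng of total RNA was labelled. The table held 34365 probe sets, of which 23521 had 1 gene symbol in the platform annotation; 23328 matched RefSeq genes by identifier. The probe set with the highest mean stood for a gene.

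A gene was tested if 1 group mean reached the median of all values, 5.19. limma 3.58.1 in R 4.3.3 fitted 1 mean per group to all 8 arrays with 4 residual and 3.68 prior degrees of freedom. Tests were two-sided, adjusted by Benjamini-Hochberg over 13872 genes at a threshold of 0.05. The number of arrays limits precision: the median standard error was 0.17. The fit was tested on simulated data.

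Members and lists were chosen with earlier results of these data known. Named in full are the 10 members with the smallest moderated F p over the contrasts with diestrus and a fixed set (Mcm2 to Mcm7, Pcna, Rrm1, Rrm2, Tyms, Tk1, Cdc6, Cdc45, Cdt1, Ccne1, Ccne2, Uhrf1, Rad51ap1). Of the other replication, control and mitosis lists a fixed set was named, except that Ccna2 and Orc2 to Orc5 were added after their values were seen. Post-partum against day 12 was added after seeing the data. Alternatives covered weights, variance model, filters, probe sets, centring and each array left out.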

Additional observations from a re-analysis of the deposited data

Results flagged for a closer look

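Some members lay on opposite sides of the diestrus mean on both arrays of 2 states. Between day 12 and post-partum, the later value minus the earlier was 0.54 for Mcm4 (-0.05 and 0.49 from diestrus), 0.06 for Rfc3, 0.35 for Rrm1, 0.58 for Cdt1 and 0.51 for Chaf1b. Between day 19 and post-partum it was 0.34 for Pold1. Between day 12 and day 19 it was 0.14 for Mcm4, -0.11 for Pold1 and 0.29 for Chaf1b. None of these differences passed in limma (adjusted p under 0.05). Single values far from their group were not looked for gene by gene, since each state has 2 arrays.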

How the results depend on the processing

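The count of members past the adjusted threshold was 0 in all 6 comparisons under every alternative run, except that leaving out single arrays gave 0 to 1 for post-partum minus day 19. The 1 was Dtl without day 19 replicate 1, a setting in which 929 genes passed. The mean difference of the members was recomputed with averaged probe sets, with centring and with single arrays left out, and kept its sign except at day 12, where single arrays left out gave -0.037 to 0.090. For post-partum minus diestrus it was 0.38 with arrays centred on their medians and 0.42 with all probe sets averaged. With each array of these groups left out, 6 of the 31 measured members changed the sign of their post-partum difference from diestrus: Pcna (-0.0055, up to 0.63 over the arrays left out) and Rrm2 (-0.035, up to 0.76) without diestrus replicate 2, Cdc45 (-0.083, up to 0.39) without post-partum replicate 4, and Rad51ap1 without diestrus replicate 3 (-0.0039) or post-partum replicate 4 (-0.013, up to 0.18), and, without post-partum replicate 2, Rfc5 (0.28) and Pola1 (0.034), an extension to all measured members added after seeing the data; the cause was not tested. A replicate block could be fitted for day 12 minus diestrus, the groups that share numbers 2 and 3: 0 members passed, and 29 genes did against 0 in the fit to all 8 arrays. The numbers mark no shared litter or day in the labels, and the replicate differences of both groups correlated at 0.22 over genes. Without the day 19 group, an alternative chosen after seeing the data, 0 members passed. In that setting 16 of 29 had an unadjusted p under 0.05 and a higher post-partum value than in diestrus, against 5.54% of genes. Members near the median of all values, such as Dtl, Chaf1a, Fen1 and Gins1, have no detection call in the files. The share of all tested genes with an unadjusted p under 0.05 and a higher post-partum value, 3.38% against diestrus, lay between 1.51% and 5.68% over the settings, and the members' count of 16 was 8 without diestrus replicate 2 or post-partum replicate 4.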
